A study of Mus musculus with 9 samples.

Results

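Connexins are the subunits of gap junctions, the channels that let ions and small molecules pass directly from one cell to the next. RNA-seq of 4T1 tumors was examined for 6 connexin genes, Gjb2, Gjb5, Gjb6, Gja1, Gja4, and Gjc1, out of 20 connexin genes and 22609 genes listed in all. The members were taken by gene symbol and were chosen by their counts in these same 9 libraries, across all 3 groups, so no p-value is given for them, and their fold changes and counts past a threshold are descriptions of the values that chose them. Other connexin genes, 3 pannexins, and lists of genes that act on connexins were tested as rows of a fit across all genes. These lists came from general knowledge, but with earlier results of these data known. Their p-values and counts past a threshold do not allow for that.

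4T1 is a mouse mammary carcinoma line that is used as a model of triple-negative breast cancer (TNBC). All tumors grew in the mammary fat pad of immune-competent hosts of strain BALB/c, from 500000 cells injected in 100 µL once the mice had been 6 weeks on diet. The LFD group was fed 10% of its calories as fat and received vehicle, 0.3% hydroxy propyl cellulose. The HFD group was fed 60% of its calories as fat and received the same vehicle. The HFD + EC359 group was fed the high-fat diet and received EC359, an inhibitor of the leukemia inhibitory factor receptor (LIFR), at 5 mg/kg intraperitoneally on 5 days per week. Each group had 3 libraries of bulk tumor, which hold tumor cells together with host stroma and whatever skin or mammary gland was cut with them. The labels do not say which mouse each library came from, so the spread between libraries may be technical. The p-values below may then not reflect the spread between mice. The ages of the mice are not given in the sources used here.

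Cells build a channel by docking hemichannels of connexin proteins across the gap between them, and which connexins a cell makes sets what can pass. Beta connexins (Gjb genes) are typical of epidermis, cochlea, and glandular epithelium. Gja1 is the most widely used connexin and is found in fibroblasts, basal mammary cells, and keratinocytes. Gja4 and Gja5 belong to endothelium, and Gjc1 to smooth muscle, pericytes, and the conduction system of the heart.

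Library totals were 5085357 to 6509130 read pairs in LFD tumors, 7314704 to 7922852 in HFD tumors, and 8043649 to 9751201 in HFD + EC359 tumors. Levels are given as CPM, counts scaled to a common library total with TMM factors, or, where genes are compared with each other, as RPKM, which is CPM divided by the exon length in kilobases. A count of 0 allows up to 3 counts, which is 0.308 to 0.59 CPM depending on the library, for counting error alone. Of the members, 5 passed the filter on low counts and were rows of the fit, and Gjb5 did not. LFD replicate 1 stood somewhat apart from the other LFD libraries, with a mean chi-square per gene of 2.46 and 3 against them, where all other pairs within a group were at 1.36 to 1.57. Without it the log2 fold changes of HFD against LFD were -5.84 for Gjb2, -4.86 for Gjb6, and 0.48 for Gja1, beside -5.84, -4.97, and 0.53 with it. The luminal keratin Krt8 was at 598.7, 408.0, and 442.0 CPM on average in LFD, HFD, and HFD + EC359 tumors. The luminal markers Epcam and Cldn4, given further on, differed more. Of 3 genes for the receptors that TNBC lacks, Pgr did not pass the filter on low counts. Esr1 averaged 6.8, 12.6, and 8.52 CPM and Erbb2 106.8, 77.3, and 74.8 CPM in the same order of groups. These are RNA levels in bulk tumor and not receptor protein, and the cells they came from were not tested.

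Gjb2 and Gjb6 are neighbors in the genome. In mm9, the build of the counts, Gjb2 occupies chr14:57717439-57723539 on the minus strand with 2 exons, and Gjb6 occupies chr14:57742140-57752414 on the same strand with 3 exons. The interval between them is 18600 bases and holds no other listed gene. Gja3, a lens connexin, lies 40656 bases from Gjb2 on the other side and had no count in any library. Gja4 is at chr4:126988665-126991222 and Gjb5 at chr4:127032053-127035408. Gja1 stands alone at chr10:56097106-56110225 and Gjc1 at chr11:102660792-102681000. No member overlapped another listed gene, and no run of 30 bases in a member's transcripts occurred in the transcripts of any other connexin.

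The 250 bases before the start are shown for Gjb2 and Gjb6, which had the same order of HFD against the other groups, and for Gja1, which had the opposite order. RefSeq (GRCm38.p6) held such an entry for 5 of the 6 members, and the same letters were found once in mm9, for Gjb2 at chr14:57723540-57723789, for Gjb6 at chr14:57752449-57752698, and for Gja1 at chr10:56096856-56097105. The sequences run 5′ to 3′ along the gene, and capitals mark matches to the motifs named after them.
Gjb2: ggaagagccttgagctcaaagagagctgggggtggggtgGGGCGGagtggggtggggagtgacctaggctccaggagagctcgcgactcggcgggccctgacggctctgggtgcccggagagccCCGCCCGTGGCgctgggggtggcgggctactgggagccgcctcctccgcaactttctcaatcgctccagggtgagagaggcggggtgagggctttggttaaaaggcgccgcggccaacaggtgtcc
Gjb6: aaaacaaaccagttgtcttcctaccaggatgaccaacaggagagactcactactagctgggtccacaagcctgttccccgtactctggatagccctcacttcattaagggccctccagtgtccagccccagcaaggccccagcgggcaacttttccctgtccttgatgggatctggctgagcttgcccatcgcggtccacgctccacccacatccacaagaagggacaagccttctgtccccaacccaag
Gja1: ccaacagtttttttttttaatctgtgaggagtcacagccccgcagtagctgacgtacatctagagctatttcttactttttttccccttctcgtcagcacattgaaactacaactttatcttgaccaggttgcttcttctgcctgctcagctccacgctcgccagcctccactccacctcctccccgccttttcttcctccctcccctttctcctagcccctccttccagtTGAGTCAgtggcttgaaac

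The motifs searched on both strands were the GC box GGGCGG, the AP-1 motif TGANTCA, the STAT motif TTCNNNGAA, the AP-2 motif GCCNNNGGC, and the TATA box TATAAA. The Gjb2 stretch held 2 GC boxes, on opposite strands, and 1 AP-2 motif that overlaps the second of them, in a sequence of 69.2% GC. Of 32851 RefSeq promoters of the same length, 32.7% held a GC box and 13.7% an AP-2 motif, and 89.6% had a lower GC content than that of Gjb2. The Gjb6 stretch held none of the 5 motifs, at 56.8% GC, and ended 34 bases before the start listed in the count files. The Gja1 stretch held 1 AP-1 motif, from -19 to -13 relative to the start, a motif found in 6.7% of the promoters. No STAT motif was found in the stretches of the 5 members, and 7.0% of all promoters had one. A match is a description of the letters alone.

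The first comparison asked how diet-induced obesity changed the tumors. Gjb2 was nearly silent in HFD tumors. The LFD libraries held 66, 93, and 69 Gjb2 read pairs, the HFD libraries 2, 1, and 2, and the HFD + EC359 libraries 175, 193, and 201. On the CPM scale the values were 13.5, 14.6, and 12.1 in LFD tumors, 0.252, 0.131, and 0.272 in HFD tumors, and 21.2, 21.8, and 20.1 in HFD + EC359 tumors. The 3 groups did not overlap, and every HFD library held fewer than the 3 counts that a count of 0 allows. In bulk tumor, fewer cells of a type and less RNA per cell cannot be told apart. From the pooled counts of 228 and 5, the LFD level was 61.7 times that of the HFD group, with a 95% counting interval of 26.0 to 191.8. Gjb2 encodes a connexin of the inner ear, epidermis, and lactating mammary gland, and its mutations cause inherited deafness and skin disease.

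Gjb6, the neighbor and frequent partner of Gjb2 in the cochlea and epidermis, was low in every group and lowest in HFD tumors. Its counts were 19, 17, and 19 in LFD tumors, 0, 1, and 1 in HFD tumors, and 24, 16, and 23 in HFD + EC359 tumors. In CPM these were 3.88, 2.67, and 3.34, then 0, 0.131, and 0.136, then 2.91, 1.8, and 2.3. All HFD libraries lay below all others, while the LFD and HFD + EC359 groups overlapped. The pooled counts of 55 and 2 gave an LFD level 37.2 times that of the HFD group, with a counting interval of 9.82 to 314.8.

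Gjb5, an epidermal and placental connexin, was close to the limit of detection. Its counts were 8, 6, and 9 in LFD tumors, 5, 2, and 6 in HFD tumors, and 6, 4, and 11 in HFD + EC359 tumors. In CPM, the LFD libraries at 1.64, 0.941, and 1.58 lay above the HFD libraries at 0.63, 0.262, and 0.817, and the HFD + EC359 libraries at 0.727, 0.451, and 1.1 overlapped both. The pooled LFD level was 2.39 times that of the HFD group, with a counting interval of 1.16 to 5.14.

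Gja1 differed from these beta connexins in both size and direction. It was at 158.8, 181.7, and 171.5 CPM in LFD tumors, 251.3, 241.3, and 249.8 in HFD tumors, and 216.6, 220.8, and 218.3 in HFD + EC359 tumors. No groups overlapped, and the order was HFD, HFD + EC359, LFD from high to low. The log2 fold change of HFD against LFD was 0.53 (SE 0.0453), and it was 0.31 once the trend with GC content and length was removed from each library.

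Gja4 and Gjc1 moved little with diet. Gja4, a connexin of arterial endothelium and of the oocyte, was at 4.5, 4.55, and 4.4 CPM in LFD tumors, 4.41, 4.58, and 5.45 in HFD tumors, and 2.79, 4.17, and 2.8 in HFD + EC359 tumors. The LFD and HFD groups overlapped, and the HFD + EC359 libraries lay below both. Gjc1 was at 37.8, 31.2, and 34.2 CPM, then 41.4, 37.4, and 40.7, then 33.1, 39.8, and 36.5, and each pair of groups overlapped. The log2 fold changes of HFD against LFD were 0.10 (SE 0.229) for Gja4 and 0.22 (SE 0.0926) for Gjc1. With the GC and length trend removed, the Gja4 value was 0.35.

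**Figure D1:**
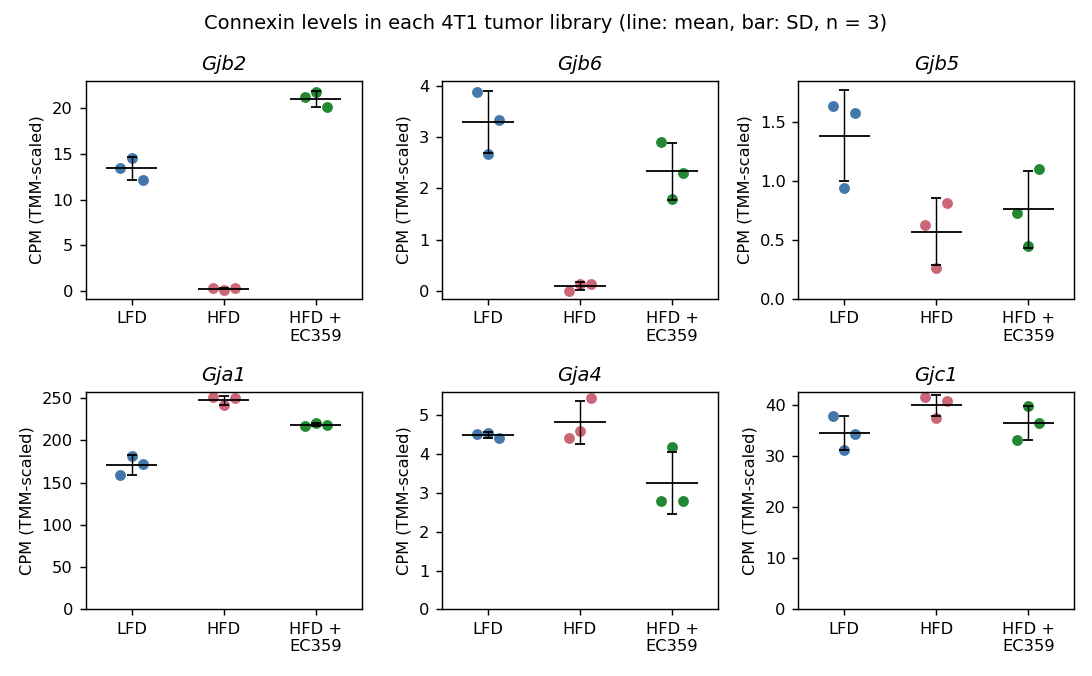
CPM of the 6 connexins (one panel each, vertical axis) in each library of the LFD, HFD, and HFD + EC359 groups (horizontal axis). Points are libraries, lines are means of 3, and bars are SDs. Gjb2 ran from 0.131 to 0.272 CPM in HFD tumors versus 12.1 to 14.6 in LFD tumors and 20.1 to 21.8 in HFD + EC359 tumors, whereas Gja1 was highest in HFD tumors.

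The threshold was set at more than 2-fold with an adjusted p below 0.01. Among the 5 members in the fit, 2 (Gjb2 and Gjb6) were past it in HFD against LFD, both lower, where 2.68% of all 13366 tested genes were lower, 3.03% higher, and 5.71% either. The HFD and LFD libraries did not overlap for 3 of the 5, Gjb2 and Gjb6 lower and Gja1 higher, where 28.6% of all tested genes were lower without overlap, 28.6% higher, and 57.1% either. Since these members were picked with such values known, the counts are not evidence about connexins as a family. The median log2 fold change of HFD against LFD was 0.10 over the 5 members and 0.007 over all tested genes.

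The next comparison asked what EC359 changed under a high-fat diet. With EC359, Gjb2 was 96.1 times its HFD level from pooled counts of 569 and 5, with a counting interval of 41.0 to 297.2. Gjb6 was 26.6 times its HFD level from counts of 63 and 2, with an interval of 7.07 to 224.5. Gja1 was lower with EC359, at a log2 fold change of -0.18 (SE 0.0421), or a pooled ratio of 0.883 (0.852 to 0.916). The change in Gja4 was -0.56 (SE 0.221) and that in Gjc1 was -0.13 (SE 0.0848). For Gjb5 the pooled ratio was 1.36, with an interval of 0.652 to 2.97 that includes no change.

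In this comparison 2 of the 5 members in the fit, Gjb2 and Gjb6, were past the threshold, both higher with EC359, beside 2.06% of all tested genes that were higher, 1.38% lower, and 3.43% either. There were 4 such members whose HFD + EC359 and HFD libraries did not overlap, Gjb2 and Gjb6 higher and Gja1 and Gja4 lower, beside 20.5% of all tested genes that were higher without overlap, 20.8% lower, and 41.3% either. The HFD libraries serve in both comparisons, so a low HFD value alone makes a gene fall in one and rise in the other. The comparison of HFD + EC359 with LFD shares libraries with each of the others.

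Against the LFD group, the HFD + EC359 group had more Gjb2, with a pooled ratio of 1.56 (1.33 to 1.83). Gjb6 was at a ratio of 0.715 (0.49 to 1.05), Gjb5 at 0.57 (0.3 to 1.08), and Gja4 at 0.723 (0.526 to 0.996). Gja1 was at a ratio of 1.27 (1.22 to 1.33), and Gjc1 at 1.07 (0.966 to 1.19). None of the 5 members in the fit passed the threshold in HFD + EC359 against LFD, beside 3.66% of all tested genes that were higher, 1.43% lower, and 5.09% either. There were 3 without overlap, Gjb2 and Gja1 higher and Gja4 lower, beside 31.8% of all tested genes higher, 31.1% lower, and 62.9% either. The Gja1 log2 fold change of 0.35 (SE 0.0452) was 0.05 once the trend with GC content and length was removed, and that of Gja4 went from -0.46 to -0.18.

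**Figure D2:**
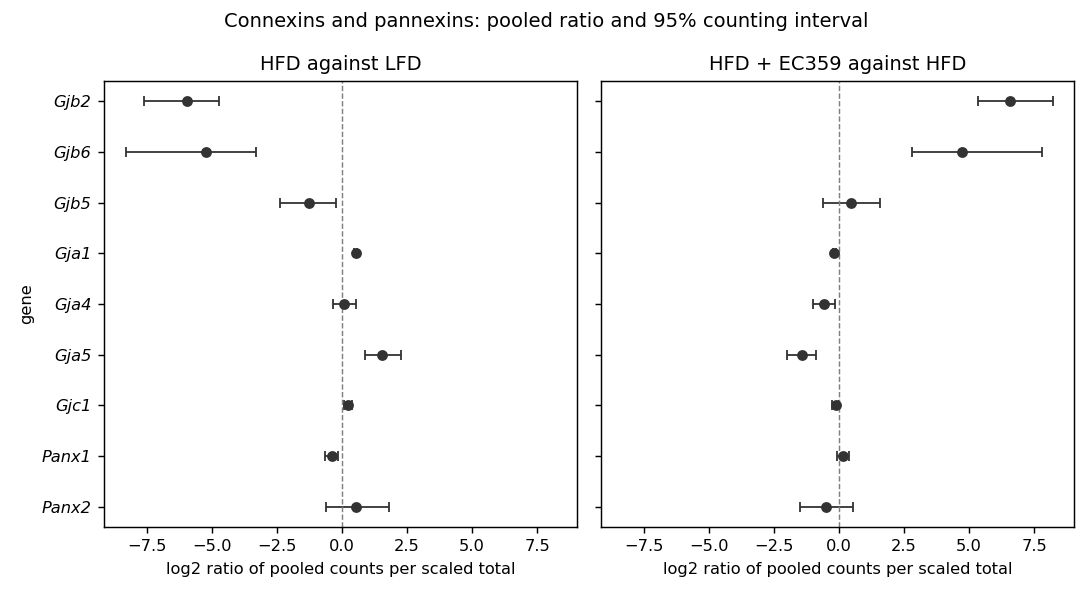
Log2 ratio of pooled counts (horizontal axis) for the 6 members, Gja5, Panx1, and Panx2 (vertical axis), HFD against LFD on the left and HFD + EC359 against HFD on the right. Bars are 95% counting intervals, which leave out the spread between libraries. Gjb2 and Gjb6 lie at -5.95 and -5.22 on the left and at 6.59 and 4.73 on the right, and Gja5 lies at 1.55 and -1.43.

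Many connexins outside the members were silent or nearly so. Gja3, Gja10, Gjd2, and Gje1 had no count in any library, where Gja3 is known from the lens and Gjd2 from neurons. Another 5 (Gja6, Gjb1, Gjc3, Gjd3, and Gjd4) had at most 3 counts in every library. Gja5 passed the filter and was tested with edgeR (quasi-likelihood), with p-values adjusted over all tested genes by the Benjamini-Hochberg method.

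Gja5, an arterial endothelial connexin, rose with HFD and fell with EC359. Its counts were 5, 8, and 10 in LFD tumors, 38, 27, and 26 in HFD tumors, and 10, 16, and 14 in HFD + EC359 tumors, so that all HFD libraries lay above all others. The means were 1.35 ± 0.378, 3.95 ± 0.722, and 1.47 ± 0.303 CPM (SD, n = 3). The edgeR log2 fold change was 1.54 (SE 0.326, adjusted p = 0.000187) for HFD against LFD and -1.42 (SE 0.282, adjusted p = 0.000226) for HFD + EC359 against HFD. It was 0.12 (adjusted p = 0.809) for HFD + EC359 against LFD, where the groups overlapped.

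Pannexins form channels of a related fold that mostly open to the outside of the cell. Panx1 was the only one of 3 to pass the filter, with means of 15.7 ± 2.0, 11.9 ± 0.288, and 13.3 ± 1.36 CPM (SD, n = 3). Its log2 fold change of HFD against LFD was -0.38 (edgeR adjusted p = 0.0182), under the fold threshold. Under the alternatives it ran from -0.476 to -0.222, with an edgeR or DESeq2 adjusted p of 0.00811 to 0.18. Panx2 had 0 to 9 counts in a library and Panx3 0 to 2.

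Per length, Gja1 made up the largest share of connexin transcripts in every library. Of the summed connexin RPKM it took 49.0 ± 2.04% in LFD tumors, 64.5 ± 0.53% in HFD tumors, and 58.6 ± 0.849% in HFD + EC359 tumors (SD, n = 3). Gjb2 took 4.97 ± 0.403%, 0.0731 ± 0.0243%, and 7.28 ± 0.217%. The summed connexin level itself differed less, at 112.1 ± 2.93, 123.5 ± 3.51, and 120.1 ± 2.8 RPKM.

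Among the 6 members the mean RPKM order in LFD tumors was Gja1 (55.0), Gjc1 (11.8), Gjb2 (5.58), Gja4 (2.76), Gjb6 (1.33), and Gjb5 (0.814), and the libraries of neighbors in this order did not overlap. In HFD tumors Gjb2 (0.0908) and Gjb6 (0.0359) ranked below Gja5 (1.27) and Gjb5 (0.334). In HFD + EC359 tumors Gjb2, at 8.74 RPKM, stood below Gjc1 (12.5) and above Gja4 (2.0), again without overlap.

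**Figure D3:**
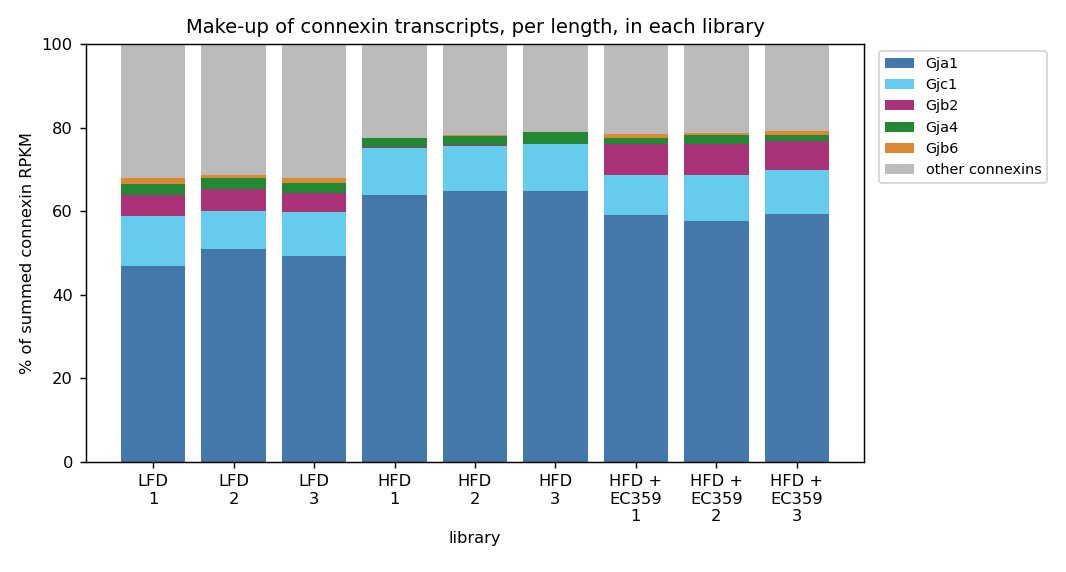
Share of the summed connexin RPKM (vertical axis, percent) taken by 5 members in each of the 9 libraries (horizontal axis), with all other connexins summed in gray. The Gjb2 segment was 4.51 to 5.27% in the LFD libraries, 0.0455 to 0.0912% in the HFD libraries, and 7.04 to 7.46% in the HFD + EC359 libraries, and the Gja1 segment was largest in the HFD libraries.

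Markers of cell types that carry these connexins also differed between the groups, some in the order of a connexin and some not, and their part in the connexin results was not tested. All 9 basal and stress keratinocyte markers, among them Krt5, Krt14, and Krt6a, fell with HFD and rose with EC359 past the threshold, beside 2.68% and 2.06% of all tested genes. Their summed level was 1902.3 to 2133.1 CPM in LFD tumors, 106.5 to 114.5 in HFD tumors, and 973.2 to 997.8 in HFD + EC359 tumors. Of 9 tested markers of differentiated epidermis, 5 fell with HFD and 7 rose with EC359 by the same rule, and their list summed to 221.4 to 229.4, 120.4 to 127.7, and 194.2 to 199.2 CPM. None of the markers in these lists was at 0 in a whole group, and the lowest of each list's tested markers in HFD tumors were Dsg3, at 0.48 CPM, and Casp14, at 0.826 CPM. Of 4 tested luminal epithelium markers, 2 (Epcam and Cldn4) fell with HFD and rose with EC359 past the threshold, beside the same 2.68% and 2.06%. Krt8 and Krt18 did not pass it. Epcam averaged 7.39, 1.37, and 5.05 CPM and Cldn4 5.7, 0.776, and 3.0 CPM in LFD, HFD, and HFD + EC359 tumors.

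Gjb2 did not keep a fixed ratio to the summed level of either list of keratinocyte markers, and the size of the difference depended on the list. Each sum leans on its most abundant genes, such as Krt14 (760.9 CPM in LFD tumors) and Krt10 (54.5 CPM in HFD tumors). In HFD against LFD, the 9 basal and stress markers had edgeR folds of 0.0253 (Krt6a) to 0.24 (Krt15). The Gjb2 counting interval was 0.00521 to 0.0384. In HFD + EC359 against LFD the markers ran from 0.311 (Krt14) to 1.53 (Krt15), and the Gjb2 interval was 1.33 to 1.83. Per 1000 CPM of the summed basal and stress list, the Gjb2 level was 6.32, 7.67, and 6.21 CPM in LFD tumors, 2.32, 1.23, and 2.38 in HFD tumors, and 21.2, 22.2, and 20.6 in HFD + EC359 tumors. The 3 groups did not overlap on this scale. The same ratio for Gjb6 was 1.4 to 1.82, 0 to 1.23, and 1.84 to 2.91, without overlap, though the HFD values rest on 0, 1, and 1 counts. The LFD and HFD + EC359 groups were apart only by 1.82 against 1.84, on 16 to 24 counts per library. Counting error was not carried into this ratio, and it could close these gaps. Per 1000 CPM of the differentiated epidermis list, Gjb2 was at 53.0 to 65.9 CPM in LFD tumors, 1.02 to 2.19 in HFD tumors, and 100.8 to 112.0 in HFD + EC359 tumors, again without overlap. Gjb6 on that scale was at 14.7 ± 2.7, 0.706 ± 0.613, and 11.9 ± 2.86 (SD, n = 3), where the LFD and HFD + EC359 libraries overlapped and their means stood in the reverse of their order on the first list.

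The endothelial list was higher with HFD in 10 of 10 markers at an adjusted p under 0.05, a rule that 26.0% of all tested genes met in that direction, and it summed to 437.6 to 469.5, 707.9 to 737.5, and 604.1 to 622.5 CPM in LFD, HFD, and HFD + EC359 tumors. With EC359, 7 of the 10 were lower, beside 13.9%. Per 1000 CPM of this list, Gja5 was at 2.34 to 3.75 CPM in LFD tumors, 4.91 to 6.49 in HFD tumors, and 2.01 to 2.9 in HFD + EC359 tumors, so the HFD libraries stayed above the others. Gja4 was at 9.37 to 10.3, 5.98 to 7.56, and 4.51 to 6.7 on the same scale. The fibroblast list summed to 7472.8 to 8931.9, 13169.2 to 13913.4, and 3647.6 to 3752.6 CPM, and Gja1 per 1000 CPM of it was 17.8 to 24.3, 17.6 to 19.0, and 57.7 to 59.8. All 8 fibroblast markers were higher with HFD at an adjusted p under 0.05, and with EC359 5 were lower and 1 higher. The collagens Col1a1, Col1a2, and Col3a1 made up 84.4 to 96.6% of the sum in a library, so the sum and the Gja1 ratio follow these 3 genes. Picked after their values were seen, Pdgfra averaged 322.3, 374.4, and 475.2 CPM and Dcn 27.3, 76.1, and 69.9 CPM in LFD, HFD, and HFD + EC359 tumors, so neither had the order of the sum. Lum, at 6.27, 12.8, and 6.02 CPM, did have that order. With EC359, Lum (log2 fold change -1.081) and Dpt (-1.055) were past the threshold downward, as were the 3 collagens. Pdgfra was the marker that was higher, and Dcn and Fap had an adjusted p above 0.05. The mural list, for smooth muscle and pericytes, summed to 511.8 to 521.4, 626.1 to 637.6, and 508.8 to 520.5 CPM, and Gjc1 per 1000 CPM of it was 60.8 to 72.5, 59.8 to 65.0, and 64.4 to 78.2. Pdgfrb alone averaged 281.6, 333.7, and 329.9 CPM, so the sum and the Gjc1 ratio lean on this gene. Of 10 tested mural markers, 8 were higher and 1 lower with HFD at an adjusted p under 0.05. With EC359, 7 were lower and 0 higher, and Pdgfrb changed by -0.017.

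**Figure D4:**
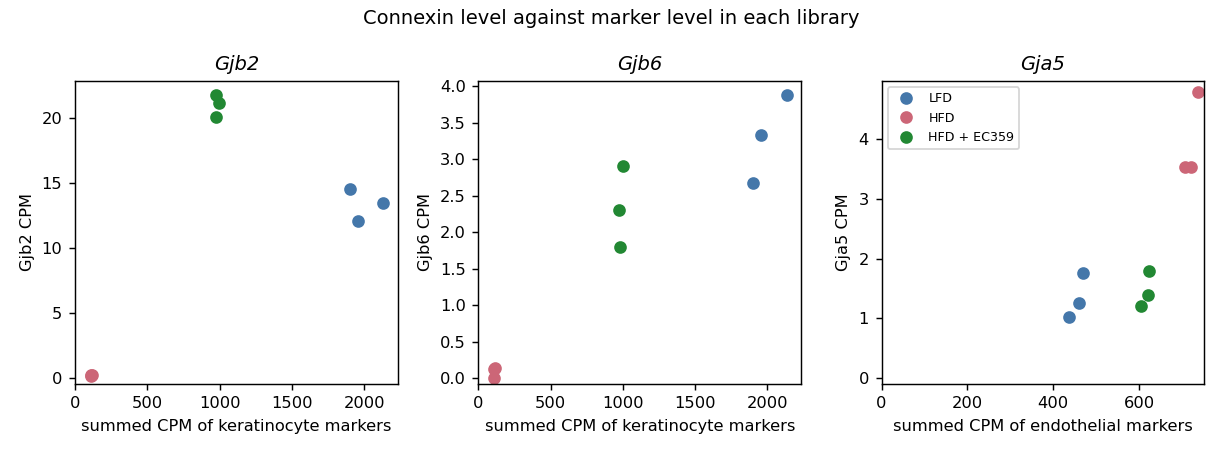
Gjb2 and Gjb6 CPM against the summed CPM of 9 basal and stress keratinocyte markers, and Gja5 CPM against that of 10 endothelial markers, with 1 point per library. The HFD + EC359 libraries had the most Gjb2 (20.1 to 21.8 CPM) at 973.2 to 997.8 CPM of keratinocyte markers, and the LFD libraries had 1902.3 to 2133.1 CPM of those markers.

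Genes whose level ran most like that of a member over the 9 libraries were found by Pearson's r of log2 CPM. These libraries share 3 group means, so any gene with the same order of groups gives a high r. For Gjb2 they were 2610528A11Rik, Rptn, and Klk7, all at r = 0.995. Rptn encodes a cornified envelope protein and Klk7 a protease of the skin surface. Rptn averaged 11.6, 0.304, and 14.7 CPM and Klk7 14.0, 1.75, and 15.8 CPM in LFD, HFD, and HFD + EC359 tumors. In all, 194 of 13365 genes had r over 0.9 with Gjb2. For Gjb6 the closest were Eps8l1 (0.991), Mpzl2 (0.99), and Homer2 (0.989), where Mpzl2 is an epithelial adhesion protein. For Gja1 they were Tgm2, Arhgap29, and Tgif1, each at 0.988. Tgm2, a transglutaminase, averaged 366.2, 565.8, and 492.7 CPM. Gja4 ran with Acot7 (0.936), Thbd (0.928), and Txndc5 (0.917), of which Thbd encodes thrombomodulin of the endothelial surface. Gjc1 ran with Dlg4 (0.969), Reps1 (0.954), and 1200011M11Rik (0.929). Between members, r was 0.955 for Gjb2 with Gjb6 and -0.659 for Gjb2 with Gja1.

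Gap junctions depend on proteins that anchor, modify, and recycle connexins. Of 30 such partner genes, 2 rose and 1 fell past the threshold in HFD against LFD, and all 30 were tested, beside 3.03% of all tested genes that rose and 2.68% that fell. Cdh1, the E-cadherin that holds epithelial cells together so that junctions can form, was at 27.4, 29.0, and 28.9 CPM in LFD tumors, 5.54, 6.02, and 6.13 in HFD tumors, and 20.1, 20.3, and 19.3 in HFD + EC359 tumors. The HFD libraries lay below all others, and the HFD + EC359 libraries lay below the LFD libraries. Its edgeR log2 fold change was -2.27 (SE 0.125, adjusted p = 3.48e-16) with HFD and 1.75 (SE 0.124, adjusted p = 3.73e-13) with EC359. It was past the threshold with EC359 in 18 of 18 alternatives.

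Cav1, caveolin of lipid rafts where connexins gather, rose with HFD by a log2 fold change of 1.05 (edgeR adjusted p = 1.56e-12). It was at 25.3, 32.5, and 31.3 CPM in LFD tumors, 61.5, 63.9, and 61.0 in HFD tumors, and 72.1, 67.7, and 68.5 in HFD + EC359 tumors. It was past the threshold in HFD + EC359 against LFD too, at 1.21 (edgeR adjusted p = 1.33e-14). Both fell under the fold threshold once the GC and length trend was removed, with values down to 0.81 and 0.88, and the first also without LFD replicate 1. Nov, a matricellular protein that binds connexins, rose with HFD at 2.25, 1.25, and 1.58 CPM in LFD tumors against 5.04, 6.41, and 5.85 in HFD tumors, a log2 fold change of 1.79 (edgeR adjusted p = 2.25e-06). Its level with EC359 was 2.79, 3.04, and 3.2 CPM, a change of -0.93 (edgeR adjusted p = 0.00132) that is under the fold threshold. It was just past that threshold, at -1.02, without HFD replicate 1 and after removal of the GC and length trend.

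At an adjusted p under 0.05 at any fold, 12 partners were higher and 10 lower in HFD against LFD, a rule met by 26.0% of tested genes upward, 25.8% downward, and 51.8% in all. In HFD + EC359 against HFD, 4 were higher and 8 lower, beside 12.7%, 13.9%, and 26.6% of tested genes. In HFD + EC359 against LFD, 11 were higher and 11 lower, beside 29.2%, 29.1%, and 58.3%. Most of the 12 kinases phosphorylate connexin tails and so open, close, or retire channels. Of the 12, 6 were lower in each of these 3 comparisons, though not the same genes throughout. In the same order of comparisons, 3, 1, and 2 were higher. Src, whose kinase closes Gja1 channels, averaged 362.9, 284.6, and 233.8 CPM in LFD, HFD, and HFD + EC359 tumors. Its log2 fold changes were -0.35 (edgeR adjusted p = 1.17e-08) with HFD and -0.28 (edgeR adjusted p = 1.5e-06) with EC359. Akt1 had -0.46 and -0.20 and Csnk1d -0.15 and -0.13. After removal of the GC and length trend, the values with HFD were -0.12 for Src, -0.20 for Akt1, and -0.05 for Csnk1d. Of the 7 genes for assembly, trafficking, or turnover, Nedd4, a ubiquitin ligase for Gja1 protein, changed by 0.14 (edgeR adjusted p = 0.000261) with HFD, and by 0.03 with EC359. Ehd1 had -0.14 and -0.10 and Ubqln4 0.16 and -0.11 in the same comparisons. After its removal, the directions with HFD turned for Nedd4 (-0.05) and Ehd1 (0.06), neither with an edgeR adjusted p under 0.05, and Ubqln4 was at 0.32.

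Of 11 transcription factors known to act on connexin genes, 2 rose and 1 fell past the threshold in HFD against LFD, beside the same 3.03% and 2.68% of all tested genes. Trp63, the master factor of stratified epithelium, was at 12.9, 11.6, and 11.4 CPM in LFD tumors, 3.4, 2.22, and 3.54 in HFD tumors, and 13.7, 11.2, and 10.4 in HFD + EC359 tumors. The HFD libraries lay below all others, while the LFD and HFD + EC359 libraries overlapped. The edgeR log2 fold change was -1.96 (adjusted p = 7.34e-10) with HFD and 1.93 (adjusted p = 5.46e-10) with EC359.

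Tbx2 and Tbx3, T-box repressors of Gja1 in other tissues, were higher with HFD, opposite to Trp63, and Tbx3 was lower with EC359. Tbx3 was at 3.27, 1.88, and 4.05 CPM in LFD tumors, 8.94, 9.03, and 11.0 in HFD tumors, and 4.6, 3.49, and 5.39 in HFD + EC359 tumors, and the HFD libraries lay above all others. It rose by a log2 fold change of 1.67 (edgeR adjusted p = 3.67e-07) with HFD and changed by -1.09 (edgeR adjusted p = 3.97e-05) with EC359, and the call with EC359 was lost without HFD replicate 3 or without HFD + EC359 replicate 2. Tbx2 rose with HFD by 1.04 (edgeR adjusted p = 1.86e-10), from 20.8, 19.3, and 17.8 CPM in LFD tumors to 39.8, 39.6, and 39.1 in HFD tumors. That call was lost without LFD replicate 3, at 0.98. Tbx2 with EC359 was at 29.9, 35.3, and 32.7 CPM, a change of -0.28 (edgeR adjusted p = 0.0123). With the GC and length trend removed, that change was -0.12 (edgeR adjusted p = 0.282). In HFD + EC359 against LFD, Tbx2 was at 0.76, under the fold threshold, and at 1.22, past it, once that trend was removed.

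**Figure D5:**
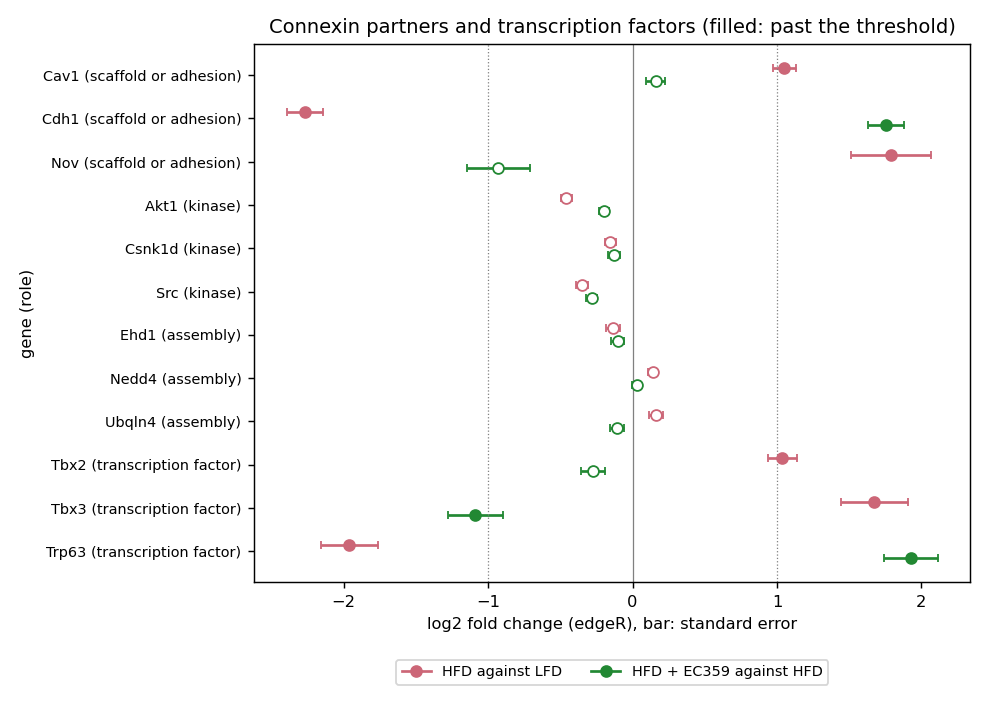
Log2 fold changes (horizontal axis) of 12 connexin partners and transcription factors (vertical axis) for HFD against LFD and HFD + EC359 against HFD, with standard errors from edgeR as bars and filled points past a fold of 2 and an adjusted p of 0.01. Cdh1 and Trp63 were at -2.27 and -1.96 with HFD and at 1.75 and 1.93 with EC359.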

How the data were processed

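RNA-seq libraries (stranded mRNA, paired-end) of 4T1 tumors were analyzed, 9 in all and 3 per group, as grouped in the labels, which do not say whether each came from its own mouse. The authors deposited expected counts of read pairs per gene, not normalized, made with featureCounts v1.5.0-p1 per the file headers, reverse-stranded, with a pair that hit more than 1 gene or position shared out in fractions. The submitters' processing notes name bcl2fastq, HISAT2 2.1.0, featureCounts, and the mm9 genome, whereas the paper's methods name TopHat2 and HTSeq. Between 1.19% and 3.55% of the genes of a library held fractions, and values were rounded to whole numbers.

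Genes were filtered with filterByExpr, scaled by TMM, and fitted in edgeR 4.0.16 (R 4.3.3) as one quasi-likelihood model of the 3 groups, with Benjamini-Hochberg adjustment over 13366 genes. Calls needed more than 2-fold and an adjusted p below 0.01. Ratios of pooled counts carry exact 95% binomial intervals, which cover counting error only. The alternatives were DESeq2 1.42.0, other scalings and filters, a call at an adjusted p below 0.05, fits to the 6 libraries compared, a replicate block, removal of the GC and length trend, and each library left out. The fit was tested on simulated data, where 189 of 200 planted 3-fold changes were found in HFD against LFD, over 13222 genes. The simulation took its spread from these same libraries and planted no change in the other genes. Its recovery does not cover any further spread between mice.

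The members and lists were chosen with earlier results of these data known. Named genes were the members, other connexins and pannexins with at least 3 counts in a library, partners and factors past the threshold (otherwise the 3 of highest mean CPM in a role), and the 3 genes most like each member. Protein sequences and the promoter of Gjc1 were not used here, and the results of some other connexins, which still count toward summed connexin levels, are not reported here.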

Additional observations from a re-analysis of the deposited data

How the results depend on the processing

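Of the connexins named here, Gjb2, Gjb6, and Gja5 had calls at the main threshold, and Panx1 had none. No such call was lost under any alternative that could be run. For Gjb2 and Gjb6, chosen by these same counts, this is a description only. Gja5 stayed past the main threshold in 17 of 17 alternatives in HFD against LFD (edgeR or DESeq2 adjusted p = 4.24e-05 to 0.00266). It did so too in HFD + EC359 against HFD (edgeR or DESeq2 adjusted p = 3.38e-05 to 0.00543). A floor of 10 counts in all 9 libraries left out Gjb2, Gjb6, and Gja5, which then have no value. It gave 356 genes past the threshold in HFD against LFD in place of 763, 211 in HFD + EC359 against HFD in place of 459, and 418 in HFD + EC359 against LFD in place of 680. That floor leaves out any gene with fewer than 10 counts in some library, and the cause of the drop was not tested. An adjusted p under 0.05 at any fold gave 6925, 3549, and 7787. Removing the GC and length trend gave 406 genes in the last comparison, and 401 with the replicate block, and the cause was not tested. With each library left out the counts ran from 702 to 777, 399 to 497, and 602 to 742. With the replicate block they were 759, 457, and 676, and the block changed no call of a named connexin. The same-numbered libraries did not deviate together (r from -0.03 to 0.017), so the numbers were not taken as pairs. Directions turned for values near 0. They also turned without the GC and length trend for Nedd4 (-0.05) and Ehd1 (0.06) in HFD against LFD. Nedd4 turned to -0.01 in HFD + EC359 against HFD without that trend. Its removal also took Nedd4 from 0.17 to -0.06 and Ehd1 from -0.24 to 0.02 in HFD + EC359 against LFD. In HFD + EC359 against LFD, Gja5 ran from -0.046 (without HFD + EC359 replicate 2) to 0.35, and was -0.02 without LFD replicate 1. With the GC and length trend removed, Gjc1 was -0.022 in that comparison, and -0.023 with the block. Without division by length, Gja1 took 59.9%, 72.9%, and 67.3% of connexin CPM in the LFD, HFD, and HFD + EC359 groups, and Gjb2 6.47% in the HFD + EC359 group. Of the 3 genes most like a member, Spearman's rho shared 0 for Gjb2, Gjb6, Gja1, and Gja4 and 1 for Gjc1, and a prior count of 0.5 shared 1 for Gjb6. Depth limits Gjb2 and Gjb6 in the HFD group, where 0 to 2 counts set the ratios, and Gjb5, whose differences were not detectable at this depth in HFD + EC359 against HFD.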
